A study of Mus musculus with 31 samples.

Results

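The 10 genes described here are transcription factor genes that act in precursors of photoreceptor, horizontal and amacrine cells of the mouse retina, and were measured in eyes at embryonic day 13.5, with and without a deletion of *Ftx*, a long noncoding RNA gene of the X chromosome. They were *Otx2*, *Crx*, *Thrb*, *Prdm1* and *Neurod1*, listed for photoreceptor precursors, and *Foxn4*, *Ptf1a*, *Onecut1*, *Onecut2* and *Lhx1*, listed for those of horizontal and amacrine cells, and some are also made in other cells of the eye. Members were found by name, as the non-control probes whose gene name in the array files was one of these symbols. This gave 10 of the 34832 gene names on the array and 15 of its 55681 probes. All 15 probes passed the filter on low values, which asked for a signal well above background in at least 3 of the 20 eyes in any group.

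The neural retina makes its neurons in a fixed but overlapping order, in which ganglion cells, horizontal cells, cones and amacrine cells are born first and rods, bipolar cells and Müller glia later. At this stage most cells are still dividing progenitors, so transcription factors of the early fates are present while most genes of light detection are not yet on. *Otx2* directs dividing cells towards the photoreceptor fate and acts upstream of *Crx*, and *Foxn4* acts upstream of *Ptf1a* in cells that become horizontal or amacrine cells.

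Eyes came from 4 groups, which were 3 WT females, 3 WT males, 3 Ftx KO males (Ftx-/Y) and 11 Ftx KO females (Ftx-/-). All were embryos of embryonic day 13.5 on a C57BL/6N background, and the pigmented epithelial layer had been cut away before RNA was extracted. By the study's account, the targeted allele also lacks expression of the microRNAs encoded within an intron of *Ftx*. Mutant eyes were those of normal outward appearance, and the labels do not say which eyes shared an embryo or litter, so p-values measure the spread between these eyes only. Each Ftx KO female eye had 2 arrays, which were averaged, and every other eye had 1. All 6 WT eyes and Ftx KO male 1 lay on slide 1, Ftx KO males 2 and 3 and Ftx KO females 1 to 3 on slide 2, Ftx KO females 4 to 7 on slide 3 and Ftx KO females 8 to 11 on slide 4. WT and Ftx KO females therefore shared no slide, and slide and genotype cannot be told apart within the female comparison.

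The promoters of *Crx* and *Thrb* are printed because these members varied together among Ftx KO female eyes, as described further on, and because both windows shown hold the letters TAATCC, the motif to which OTX2 and CRX bind. Both are RefSeq sequences of GRCm38.p6, 300 bases around the annotated start and written along the gene's strand. The *Crx* promoter is chr7:15879906-15880205 on the minus strand, and the *Thrb* promoter, the first of 2 listed, is chr14:17660710-17661009 on the plus strand. Capitals mark GGATTA, which is TAATCC read from the other strand.
Crx: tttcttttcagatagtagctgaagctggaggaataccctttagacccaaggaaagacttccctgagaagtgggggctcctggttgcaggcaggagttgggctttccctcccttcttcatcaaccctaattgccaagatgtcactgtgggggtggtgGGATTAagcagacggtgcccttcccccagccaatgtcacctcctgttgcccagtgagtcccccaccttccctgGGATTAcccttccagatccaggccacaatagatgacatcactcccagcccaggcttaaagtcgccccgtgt
Thrb: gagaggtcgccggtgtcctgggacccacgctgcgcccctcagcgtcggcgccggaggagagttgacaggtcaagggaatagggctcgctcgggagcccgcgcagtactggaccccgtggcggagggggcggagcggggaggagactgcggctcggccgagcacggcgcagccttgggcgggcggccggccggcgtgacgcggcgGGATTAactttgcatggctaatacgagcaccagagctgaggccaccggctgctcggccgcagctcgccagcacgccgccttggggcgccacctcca

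The *Crx* promoter held the motif at -94 and at -21 from the start, and the *Thrb* promoter held it at -46. On either strand, TAATCC was present in 7.06% of the 32851 promoters of this length. The nuclear receptor half-site AGGTCA was also searched on both strands, was present in 16.3% of promoters and lay at -184 in the *Thrb* promoter. Of the other members, *Otx2* held TAATCC in 1 of its 4 promoters. The second *Thrb* promoter held none, no promoter was searched for *Onecut2*, and no match was found in the promoters of *Prdm1*, *Neurod1*, *Ptf1a*, *Foxn4*, *Onecut1* and *Lhx1*. The motif search describes letters in a window and shows no binding.

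Across the arrays, 48.2% to 70.4% of spots were well above background, and no spot was saturated on any array. *Ftx* is listed under the older name *B230206F22Rik* with 2 probes, of which the brighter gave 101 ± 44.9 in WT females and 106 ± 4.39 in WT males (SD, n = 3 each). It gave 16.5 ± 2.94 in Ftx KO males (n = 3), where it was well above background on 0 of 3 arrays, and 21.8 ± 11 in Ftx KO females (n = 11), where it was so on 9 of 22 arrays. The dimmer probe reached that level on 2 of 3 arrays of WT females, on 0 of 3 of either male group, and on 1 of 22 of Ftx KO females. Lens crystallins and retinal progenitor genes were high in every eye, with mean log2 levels of 13.61 to 14.58 for the 24 lens genes and 13.58 to 13.89 for the 15 retinal progenitor genes. Signals below are normalized intensities, and levels of different probes are not set against each other. A whole eye is a mixture of tissues, so fewer cells of a type and less RNA per cell cannot be told apart for any gene.

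The main comparison asked whether the early neuron genes differed between Ftx KO and WT female eyes. Of the 10 genes, *Neurod1*, *Ptf1a* and *Lhx1* fell in Ftx KO females by their brightest probe, and the other 7 did not pass the test (limma, Benjamini-Hochberg adjusted p under 0.05 over 35034 probes). That is 3 of 10 genes called, where 26.7% of all probes tested were called, 12.9% lower and 13.9% higher (4853 higher of 9361 called, and 3657 of 9818 after normalization to the 75th percentile). The median log2 difference of the 10 genes was -0.08, beside -0.01 for all probes, and the median size of the difference was 0.08, beside 0.29 for all probes. *Ptf1a* has 1 probe on the array, and the second probes of *Neurod1* and *Lhx1* did not fall. Without WT female 1, or without WT female 2, none of the 10 genes was called. With slide as a block none was called either, at log2 differences of -0.29 (SE 0.184) for *Neurod1*, -0.40 (SE 0.357) for *Ptf1a* and -0.94 (SE 0.502) for *Lhx1*. In that fit WT and Ftx KO females were linked only through Ftx KO males, of which male 1 alone lay on slide 1. It therefore gave no comparison of the female groups within a slide.

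**Figure D1:**
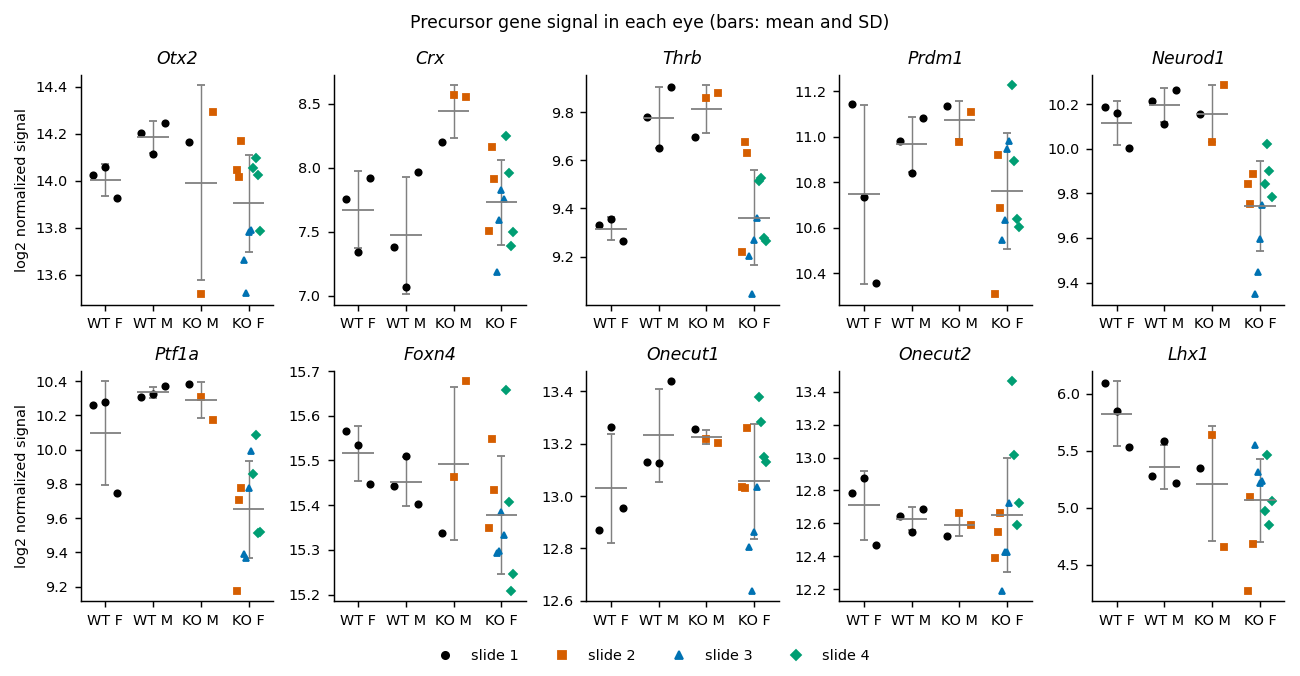
Signal of each of the 10 genes (brightest probe, log2 normalized intensity on the vertical axis) in each of the 20 eyes, grouped as WT females (WT F), WT males (WT M), Ftx KO males (KO M) and Ftx KO females (KO F). Points are eyes, shapes and colours mark the slide, and bars give the group mean and SD. Ftx KO females lie below every Ftx KO male for *Ptf1a*, *Thrb* and *Neurod1*, while the groups overlap for *Otx2*, *Prdm1*, *Foxn4*, *Onecut1* and *Onecut2*.

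*Otx2* (probe at chr14:49277855-49277914, mm9, minus strand) encodes the homeobox factor needed for photoreceptor fate, and is also made in pigment epithelium. Its signal was 16677, 17051 and 15592 in WT females and 18875, 17728 and 19455 in WT males. It was 18357, 11732 and 20096 in Ftx KO males, and it ran from 11765 through a median of 16574 to 18411 in Ftx KO females. The groups overlapped, and Ftx KO females differed from WT females by -0.10 on the log2 scale (95% interval -0.38 to 0.18, adjusted p = 0.608). The 4 Ftx KO female eyes of slide 3 lay at 11765 to 14150, eye 11 of slide 4 at 14126, and Ftx KO male 2, on slide 2, was as low. A dimmer probe at chr14:49284952-49285011 gave 245.6, 215.5 and 169.1 in WT females and 135.2 to 198.8 in Ftx KO females, where all 11 eyes lay below the WT mean (log2 difference -0.35, adjusted p = 0.0633).

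*Crx* (chr7:16452217-16452276, minus strand), the cone-rod homeobox gene, had its highest signals in Ftx KO males. It was 216.3, 161.9 and 242.1 in WT females, 166.8, 134 and 250.3 in WT males and 294.8, 378.9 and 375.4 in Ftx KO males. Ftx KO females ran from 145.4 to 303.8 with a median of 215.7. Every Ftx KO male eye was thus above every WT eye, while the female groups overlapped. The mean of Ftx KO males was 1.96 times that of WT males (log2 difference 0.97, SE 0.26, p = 0.00132), but this did not pass over all probes (limma, adjusted p = 0.17). It passed without WT male 3 (log2 difference 1.22, adjusted p = 0.0281), and within slide 1, which holds Ftx KO male 1 alone, the log2 difference was 0.73 (adjusted p = 0.998). In females the log2 difference was 0.06 (95% interval -0.37 to 0.49).

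*Thrb* (chr14:18868800-18868859, plus strand) encodes a thyroid hormone receptor that is an early gene of cones. Its signal was 644.4, 654.3 and 614.3 in WT females and 877.8, 804.5 and 957.1 in WT males. It was 830.1, 928.6 and 943.2 in Ftx KO males, and 527.7 to 817.6 with a median of 621.4 in Ftx KO females. Signals were thus lower in females than in males of either genotype, with a small overlap only between the highest Ftx KO female and the lowest WT male. Ftx KO females were below Ftx KO males in 11 of 11 eyes (log2 difference -0.45, SE 0.11, limma, adjusted p = 0.0466), and WT females below WT males in 3 of 3 (-0.46, SE 0.14, p = 0.0031, adjusted p = 0.186). A second probe 632 bases downstream gave 366.9, 343.5 and 339.9 in WT females, 401.2, 398.1 and 488.6 in WT males, 506.5, 500.3 and 526.5 in Ftx KO males and 225.5 to 458.1 in Ftx KO females. Its order of the groups was the same within each genotype. It was lower by 0.64 in Ftx KO females than in Ftx KO males (adjusted p = 0.0633) and by 0.29 in WT females than in WT males (adjusted p = 0.595). The call between the mutant sexes was lost without any single Ftx KO male, at adjusted p from 0.0957 without Ftx KO male 1 to 0.251 without the third and 0.266 without the second. Within slide 2 the log2 difference was -0.36 (p = 0.0558), and the call held in 5 of 20 alternative settings.

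*Prdm1* (chr10:44157089-44157148, minus strand), a repressor that holds photoreceptor precursors back from the bipolar fate, gave 2264, 1707 and 1312 in WT females and 2020, 1832 and 2166 in WT males. Ftx KO males gave 2247, 2018 and 2207, and Ftx KO females 1268 to 2399 with a median of 1649. WT females alone covered most of the range of the other groups. No comparison passed, and Ftx KO females differed from WT females by 0.02 on the log2 scale (95% interval -0.30 to 0.34).

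*Neurod1*, a basic helix-loop-helix factor of photoreceptor and amacrine differentiation, had 2 probes that moved apart. The upstream probe (chr2:79294309-79294368, minus strand) gave 1165, 1144 and 1027 in WT females, 1188, 1108 and 1228 in WT males and 1141, 1046 and 1250 in Ftx KO males. Ftx KO females ran from 651.8 to 1039 with a median of 881.2, and 10 of 11 eyes lay below every WT female. The mean was 0.772 times that of WT females (log2 difference -0.37, SE 0.11, limma, adjusted p = 0.0176). The call was lost without WT female 1 (adjusted p = 0.1) and without WT female 2 (adjusted p = 0.0799), and held in 16 of 22 alternative settings.

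The downstream *Neurod1* probe (chr2:79293621-79293680), 688 bases closer to the 3′ end, went the other way. It gave 707.2, 669.5 and 587 in WT females, and 628.7 to 1096 with a median of 767.4 in Ftx KO females, with 10 of 11 eyes above the WT mean (log2 difference 0.30, adjusted p = 0.119). In WT males it was 791.1, 658.2 and 957.7, and in Ftx KO males 914.7, 770.8 and 758.2. The log2 signal of the upstream minus the downstream probe averaged 0.77 in WT females, 0.57 in WT males, 0.49 in Ftx KO males and 0.10 in Ftx KO females. Ftx KO females differed from WT females in this quantity by -0.67 (exact permutation test over eyes, two-sided, p = 0.0137; adjusted over the 5 genes with 2 probes, 0.032; smallest possible p 0.00275). The quantity was -0.39 to -0.32 in the 4 eyes of slide 3, below all other eyes, 0.20 to 0.34 in those of slide 4 and 0.38 to 0.55 in the Ftx KO females of slide 2, and Ftx KO males on slide 2 had 0.44 and 0.72. The eyes of slide 1 ran from 0.32 in Ftx KO male 1 to 0.81 in WT female 4, overlapping slides 2 and 4. Over 4990 genes with upstream and downstream probes, the median shift of the same quantity against WT was -0.16 to -0.14 on slide 3, -0.12 to -0.03 on slide 4 and -0.02 to -0.01 on slide 2. The WT eyes themselves, all on slide 1, ran from -0.07 in WT male 1 to 0.07 in WT female 1. The part of slide in the *Neurod1* result was not tested.

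**Figure D2:**
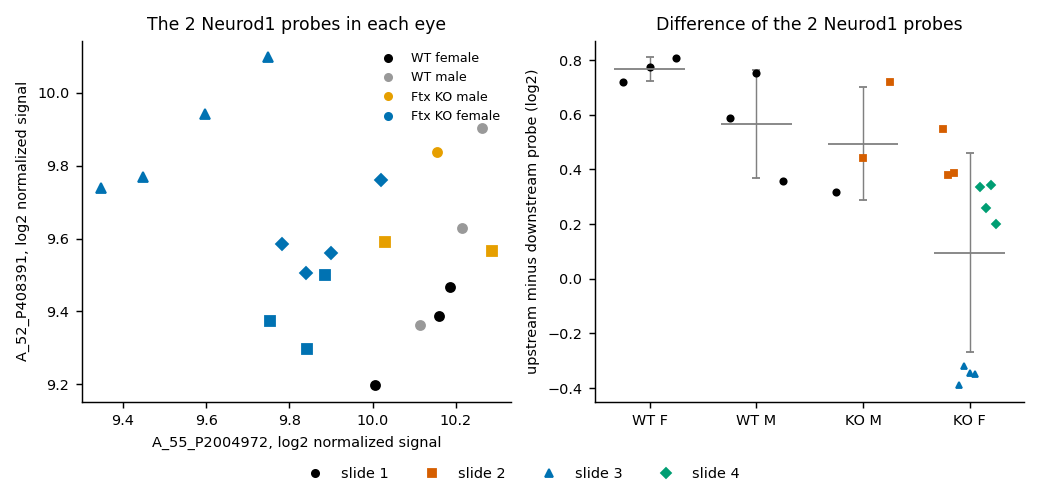
The upstream and downstream *Neurod1* probes (log2 normalized signal) and the difference between them in each eye, by group, with slides as shapes and colours and bars for group mean and SD. The Ftx KO female eyes of slide 3 are low for the upstream probe, high for the downstream probe, and are the only eyes whose difference lies below 0.

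*Foxn4* (chr5:114704209-114704268, minus strand), a forkhead factor of progenitors that give rise to horizontal and amacrine cells, overlapped between the groups. It gave 48483, 47468 and 44684 in WT females, 44552, 46687 and 43322 in WT males and 41409, 45166 and 52402 in Ftx KO males. Ftx KO females ran from 37875 to 51661 with a median of 41751, and 9 of 11 lay below every WT female. The log2 difference of -0.14 (95% interval -0.31 to 0.03) did not pass the test (adjusted p = 0.211).

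*Ptf1a* (chr2:19368720-19368779, plus strand), which acts downstream of *Foxn4* and is needed for horizontal cells and most amacrine cells, was lowest in Ftx KO females. It gave 1230, 1242 and 858.8 in WT females, 1266, 1282 and 1327 in WT males and 1335, 1269 and 1155 in Ftx KO males. Ftx KO females ran from 579.4 to 1086 with a median of 836.1. All 11 eyes were below the WT female mean and below every male eye of either genotype, and 6 were below WT female 4, the lowest WT eye. Ftx KO females were at 0.735 times WT females (log2 difference -0.445, SE 0.15, limma, adjusted p = 0.0377) and at 0.643 times Ftx KO males (log2 difference -0.64, SE 0.15, limma, adjusted p = 0.0442). The former was lost without WT female 1 (adjusted p = 0.207) or WT female 2 (0.196), and the latter without any single Ftx KO male, at adjusted p = 0.18, 0.229 and 0.144 without males 1, 2 and 3. Taken alone against WT females, the Ftx KO females of slide 2 differed by -0.54, those of slide 3 by -0.47 and those of slide 4 by -0.35, and within slide 2 Ftx KO females and males differed by -0.69 (p = 0.0122, adjusted p = 0.534). The direction was the same in every alternative setting run, and the call held in 10 of 21 against WT females and in 7 of 19 against Ftx KO males.

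*Onecut1* and *Onecut2*, paralogous factors of horizontal cells that early ganglion cells and cone precursors also make, overlapped between all groups. *Onecut1* (chr9:74737402-74737461, plus strand) gave 7486, 9829 and 7934 in WT females, 8962, 8942 and 11095 in WT males, 9773, 9537 and 9430 in Ftx KO males and 6379 to 10660 in Ftx KO females (median 8400). A dimmer probe nearer its 5′ end ran from 190.5 to 303.4 over all eyes. *Onecut2* gave 7051, 7508 and 5679 in WT females, 6418, 6000 and 6592 in WT males and 5895, 6486 and 6162 in Ftx KO males. Its range in Ftx KO females was 4684 to 11287 with a median of 6159, and eye 8 stood above every other eye. The log2 differences of Ftx KO from WT females were 0.03 for *Onecut1* (95% interval -0.23 to 0.28) and -0.06 for *Onecut2* (-0.42 to 0.30).

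*Lhx1*, a LIM homeobox gene that places horizontal cells in their layer, was close to background. Its upstream probe (chr11:84335442-84335594, minus strand) was well above background on all 3 WT female and all 3 WT male arrays, on 1 of 3 Ftx KO male arrays and on 13 of 22 Ftx KO female arrays. It gave 68.53, 57.57 and 46.31 in WT females, 38.78, 47.95 and 37.28 in WT males, 40.82, 49.7 and 25.16 in Ftx KO males and 19.35 to 46.87 in Ftx KO females (median 34.19). All 11 Ftx KO female eyes were below the WT female mean (log2 difference -0.76, SE 0.25, limma, adjusted p = 0.0273), which was lost without WT female 1 (adjusted p = 0.165) or WT female 2 (0.0928) and held in 10 of 21 alternative settings. The downstream probe (chr11:84331888-84331947) differed by 0.17 (adjusted p = 0.717), and exceeded background clearly on 2 of 3 arrays of WT females and 11 of 22 of Ftx KO females, so no difference between the *Lhx1* probes is given. Upstream minus downstream log2 signal differed between Ftx KO and WT females by -0.20 for *Onecut1* (exact permutation p = 0.0192, adjusted 0.032), -0.25 for *Otx2* (0.225) and 0.14 for *Thrb* (0.192, adjusted 0.225). For *Onecut1* the group means were -4.94 in WT females, -5.14 in Ftx KO females, -5.33 in WT males and -5.05 in Ftx KO males, so males differed the other way, and the female groups share no slide.

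The remaining comparisons asked whether the same deletion moved these genes in males, and whether the sexes differed. Between Ftx KO and WT males 0 of 10 genes passed, where 0.00285% of all probes passed and 4765 had an unadjusted p under 0.05. *Crx* was the only member with such a p. Between WT females and males 0 of 10 passed, where 0.385% of probes passed and 4387 had an unadjusted p under 0.05, and *Thrb* was the only member gene with such a p by its brightest probe. Between Ftx KO females and males 2 of 10 passed, *Ptf1a* and *Thrb*, both lower in females, where 1.22% of probes passed, 0.925% lower and 0.297% higher. The median log2 difference of the 10 genes there was -0.24, beside 0.01 for all probes. *Neurod1* (log2 difference -0.42, adjusted p = 0.071) and *Crx* (-0.71, adjusted p = 0.109) did not pass, though 11 of 11 and 10 of 11 Ftx KO female eyes lay below every Ftx KO male. The 2 comparisons that involve Ftx KO females share those eyes. Leaving out any 1 Ftx KO male left no member called, and neither did the fit within slide 2 call any, with 3 eyes against 2.

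**Figure D3:**
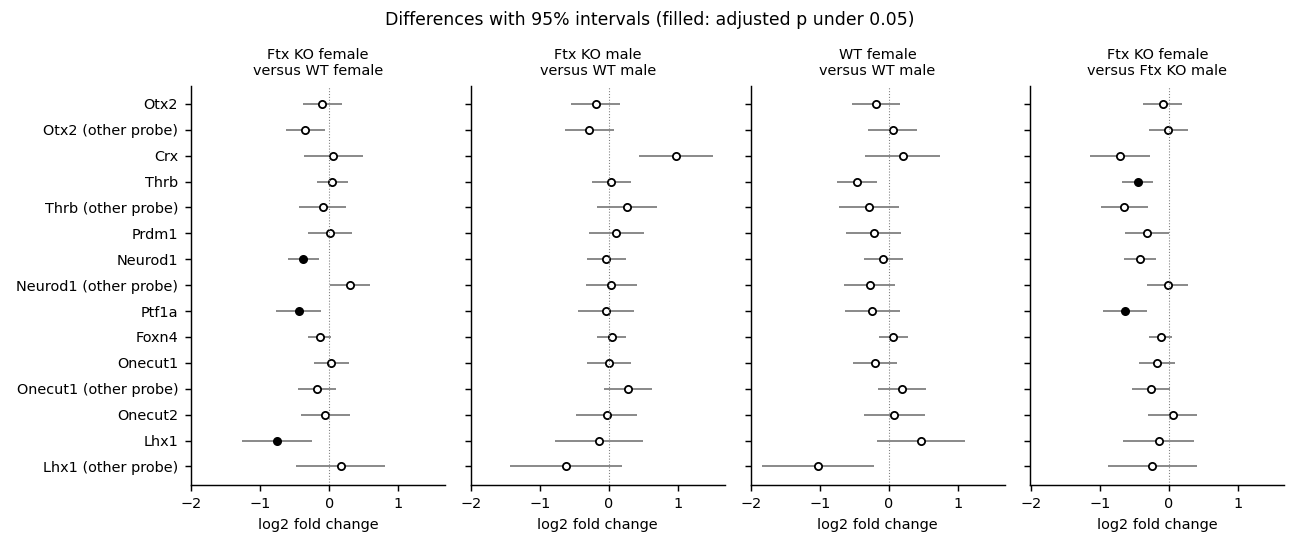
Log2 difference of each of the 15 probes in the 4 pairwise comparisons, with 95% intervals from the limma fit. Rows marked as other probe show the dimmer probe of a gene. Filled points mark adjusted p under 0.05. Points are filled for the brightest probes of *Neurod1*, *Ptf1a* and *Lhx1* in Ftx KO females against WT females. Against Ftx KO males they are filled for the brightest probes of *Thrb* and *Ptf1a*. In the latter the intervals of *Crx*, of the brightest *Neurod1* probe and of the other *Thrb* probe also lie below 0, with open points.

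Whether the change with *Ftx* loss differed between the sexes was tested as the female minus the male log2 difference. No member passed, as no probe did (0%), and 3923 probes had an unadjusted p under 0.05. *Crx* had the lowest p among the brightest probes of the members (-0.91, SE 0.33, p = 0.0125, adjusted p = 0.327). The value was -0.40 for *Ptf1a* (95% interval -0.91 to 0.12), -0.34 for *Neurod1* (-0.70 to 0.03) and 0.01 for *Thrb* (-0.36 to 0.38). The falls of *Ptf1a* and *Neurod1* in females are thus not shown to be particular to females.

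Some other genes of the photoreceptor lineage fell in Ftx KO females, and 8 of those measurable were not called against WT females. Of 23 photoreceptor genes listed, 13 were measurable, and against WT females 5 of these fell and 0 rose, where 12.9% of all probes were called lower, with a median log2 difference of -0.39. *Rxrg*, a nuclear receptor of cone precursors, was 2405, 2907 and 2284 in WT females and 955 to 2161 (median 1579) in Ftx KO females, below every WT eye in all 11 (log2 difference -0.73, adjusted p = 0.00807). *Gnb3*, a G protein subunit of cones and bipolar cells, was 208, 151 and 178 in WT females and 74 to 185 (median 102) in Ftx KO females (-0.65, adjusted p = 0.0297). *Arr3*, cone arrestin, fell by 1.83 (adjusted p = 0.00297), but was well above background on only 14 of 22 Ftx KO female arrays. The other genes that fell were *Gngt2* and *Rorb*. Leaving out WT females in turn gave counts of 2 to 5 falls, with *Rxrg* lost without WT female 2 (adjusted p = 0.0643) and *Gnb3* without WT female 1 (0.174) or WT female 4 (0.0669), while *Arr3* passed each time. With slide as a block the log2 difference of *Arr3* was -0.69 (adjusted p = 0.714).

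Against Ftx KO males, 3 of the 13 photoreceptor genes fell in Ftx KO females and 0 rose, where 0.925% of all probes were called lower, with a median log2 difference of -0.56. Leaving out 1 Ftx KO male gave 0 to 1 falls. *Rxrg* was 2930, 2855 and 2820 in Ftx KO males, well above the highest Ftx KO female (log2 difference -0.92, adjusted p = 0.0169). *Gnb3* was 215, 236 and 235 (-1.02, adjusted p = 0.0203). Both calls were lost without any 1 Ftx KO male, at adjusted p of 0.0785 to 0.148, and within slide 2 the differences were -0.83 (p = 0.0084) and -0.79 (p = 0.0332). No photoreceptor gene was called between Ftx KO and WT males or between WT females and males. Of the members, *Otx2*, *Crx* and *Prdm1* were not called in any of these comparisons.

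Genes listed for horizontal and amacrine cells were called at 3 of 7 and 5 of 16 measurable genes, in both directions, beside 12.9% of all probes called lower and 13.9% higher. Of 9 horizontal cell genes 7 were measurable, and against WT females 2 fell, *Prox1* (log2 difference -0.84, adjusted p = 0.00505) and the calcium-binding protein gene *Calb1* (-0.69, adjusted p = 0.0454), and *Isl1* rose (0.33, adjusted p = 0.0475). *Prox1* is also a gene of lens fibres and *Isl1* one of ganglion cells, and the *Calb1* probe was well above background on 0 of 3 Ftx KO male and 15 of 22 Ftx KO female arrays. Of 19 amacrine cell genes 16 were measurable, 3 fell and 2 rose. *Gad2*, an enzyme of GABA synthesis, was 702, 785 and 597 in WT females and 417 to 664 (median 528) in Ftx KO females (-0.47, adjusted p = 0.0105), whereas the transcription factor genes *Ebf2*, which mesenchyme also makes (0.80, adjusted p = 0.00255), and *Bhlhe22* (0.67, adjusted p = 0.000521) rose. Leaving out 1 WT female gave 1 to 2 falls and no rise among the horizontal cell genes, and 0 to 2 falls and 2 rises among the amacrine cell genes, where *Gad2* was lost without WT female 1 (adjusted p = 0.0574) or WT female 2 (0.0903). *Calb1* was lost without WT female 1 (adjusted p = 0.311) or WT female 2 (0.133) and *Isl1* without any 1 WT female (0.0532 to 0.232). *Ebf2* passed each time, with a log2 difference of 0.45 without WT female 1 (adjusted p = 0.0429), and the difference of *Calb1* was then -0.46.

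Against Ftx KO males, *Gad2* and *Slc32a1*, the vesicular transporter of GABA and glycine, fell among the amacrine cell genes and no horizontal cell gene passed. *Gad2* was 794, 771 and 742 in Ftx KO males, above every Ftx KO female (log2 difference -0.62, adjusted p = 0.0154), and *Slc32a1* averaged 992 ± 42.2 (SD, n = 3) in Ftx KO males against 668 ± 124 (n = 11) in Ftx KO females (-0.59, adjusted p = 0.0404). Neither passed without any 1 Ftx KO male, at adjusted p of 0.0738 to 0.213. Among 14 genes of neurogenic progenitors, the cells about to become neurons, 4 fell and 2 rose against WT females, where 12.9% of all probes were called lower and 13.9% higher, and 3 fell against Ftx KO males, where 0.925% were called lower. Leaving out 1 WT female gave 1 to 3 falls and 0 to 1 rises, and leaving out 1 Ftx KO male gave 0 to 1 falls. *Atoh7*, a factor needed for retinal ganglion cells, was 41563, 38581 and 36019 in WT females and 26408 to 36749 (median 30973) in Ftx KO females (log2 difference -0.32, adjusted p = 0.0233). *Btg2*, an antiproliferative gene, was 1283, 1491 and 1385 in WT females and 1505 to 2330 (median 1645) in Ftx KO females, which all lay higher (0.33, adjusted p = 0.0374). *Atoh7* was lost without WT female 1 (adjusted p = 0.147) or WT female 2 (0.0781), and *Btg2* without any 1 WT female (0.0617 to 0.194). *Penk*, the proenkephalin gene, was 3000, 3303 and 3143 in Ftx KO males, above each of the Ftx KO females at 1770 to 2953 (median 2275; log2 difference -0.49, adjusted p = 0.0297), and was lost without any 1 Ftx KO male (0.0873 to 0.213). With slide as a block, no gene of these lists passed in any comparison.

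**Figure D4:**
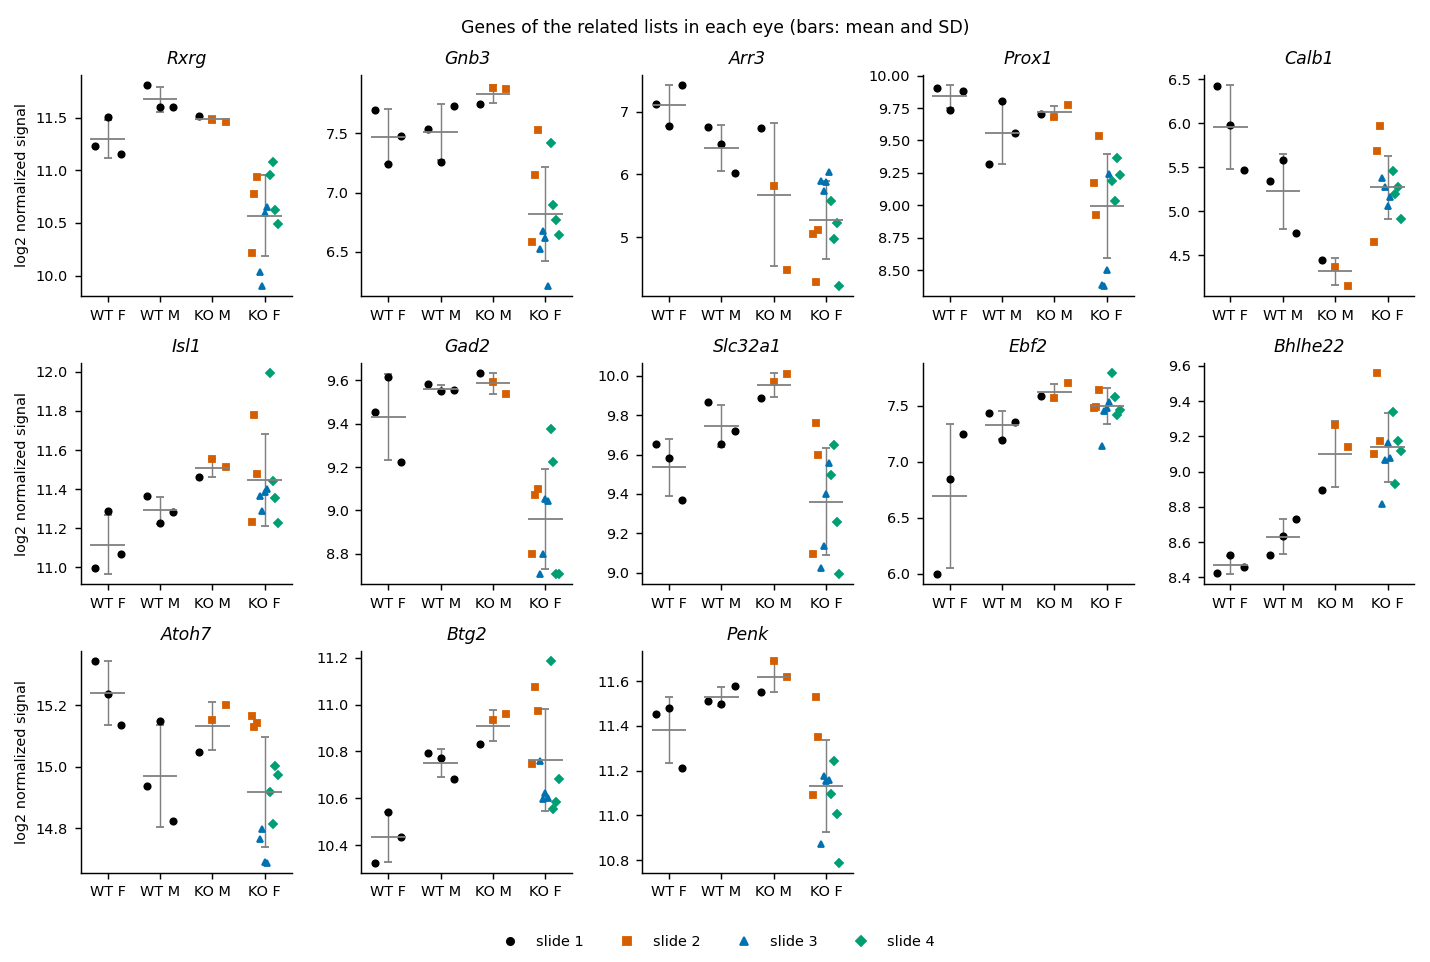
Log2 normalized signal in each eye of 13 genes described above, each called in at least 1 comparison, of photoreceptors (*Rxrg*, *Gnb3*, *Arr3*), horizontal cells (*Prox1*, *Calb1*, *Isl1*), amacrine cells (*Gad2*, *Slc32a1*, *Ebf2*, *Bhlhe22*) and neurogenic progenitors (*Atoh7*, *Btg2*, *Penk*), with slides as shapes and colours and bars for group mean and SD. Ftx KO females have a higher mean than WT females for *Isl1*, *Ebf2*, *Bhlhe22* and *Btg2*, and a lower mean for the others. Against Ftx KO males their mean is higher for *Calb1* and slightly so for *Bhlhe22* (log2 difference 0.04).

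Markers of tissues outside the retina moved in the same eyes, in a comparison where 12.9% of all probes were called lower and 13.9% higher. Against WT females, 16 of 24 lens genes fell in Ftx KO females and 0 rose, and the mean log2 level of the list was 13.61 to 14.21 against 14.30 to 14.58. Of 14 periocular mesenchyme genes 9 rose and 0 fell, with list levels of 7.96 to 10.85 against 6.80 to 7.86, and of 15 pigment epithelium genes 5 rose and 0 fell, with levels of 7.17 to 10.07 against 7.48 to 7.95. Of 15 retinal progenitor genes 2 rose, a share close to that of all probes, and 0 fell, with a median log2 difference of 0.07, and of 21 ganglion cell genes 4 rose and 4 fell. The 10 members together had a mean log2 level of 10.52 to 11.02 in Ftx KO females, which spans the 10.76 to 11.003 of WT females, 10.89 to 11.06 in WT males and 11.02 to 11.04 in Ftx KO males. The photoreceptor list ran from 7.31 to 7.87 in Ftx KO females, overlapping Ftx KO males (7.83 to 8.08) and lying below WT females (7.98 to 8.08) and WT males (7.99 to 8.20). Against Ftx KO males, 0.925% of all probes were called lower and 0.297% higher. There 4 of 24 lens genes, 4 of 21 ganglion cell genes and 3 of 13 erythroid genes fell and 0 rose in these lists. Against WT females 3 of the 13 erythroid genes rose and 0 fell. No gene of the mesenchyme or pigment epithelium lists was called against Ftx KO males. Their median log2 differences there were 1.29 and 0.87, with 1 of 14 and 0 of 15 genes below 0. The mesenchyme list level was 7.71 to 8.68 in Ftx KO males. The part of these tissue markers in the members' results was not tested.

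Among the 11 Ftx KO female eyes, 5 of 6 planned pairs of members listed for the same precursors were compared. The other, *Ptf1a* with *Lhx1*, was left out because *Lhx1* was not well above background on all arrays of these eyes. Adjustment was over the 5 pairs compared. *Crx* and *Thrb* varied together (Pearson r = 0.771, permutation p = 0.00588, adjusted 0.0147; Spearman rho = 0.755, permutation p = 0.0099, adjusted 0.0247), and r was 0.801 after the 2 eyes with the most extreme *Crx* were dropped. *Onecut1* and *Onecut2* also did (r = 0.794, permutation p = 0.00288, adjusted 0.0144; rho = 0.827, permutation p = 0.00327, adjusted 0.0163), with r = 0.839 after the same step for *Onecut1*. With slide means taken out and permutation within slides, r was 0.752 for *Crx* and *Thrb* (p = 0.0275, adjusted 0.0688) and 0.725 for *Onecut1* and *Onecut2* (p = 0.0126, adjusted 0.0628), so neither passed after adjustment, whereas after normalization to the 75th percentile both did (r = 0.812 and 0.73, adjusted 0.0362 for each). *Otx2* with *Crx* (r = 0.507, rho = 0.518), *Crx* with *Neurod1* (r = 0.451, rho = 0.255) and *Foxn4* with *Ptf1a* (r = 0.463, rho = 0.528) did not pass, at adjusted permutation p = 0.165 for each r. After normalization to the 75th percentile *Foxn4* and *Ptf1a* did pass (r = 0.815, adjusted permutation p = 0.00577; within slides r = 0.8, adjusted 0.0362). All eyes of a slide share its hybridization.

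**Figure D5:**
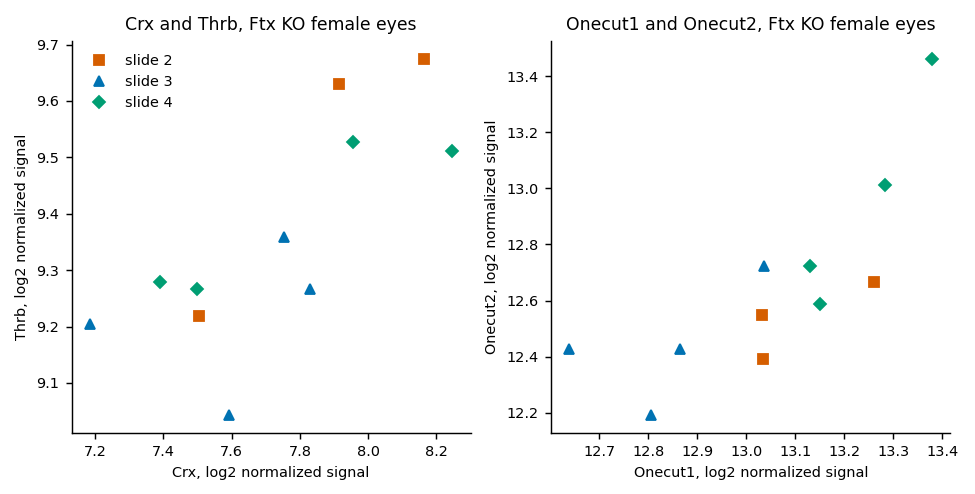
Log2 normalized signal of *Thrb* against *Crx* and of *Onecut2* against *Onecut1* in the 11 Ftx KO female eyes, with slides as shapes and colours. Eyes with more *Crx* had more *Thrb* (r = 0.771), and eyes with more *Onecut1* had more *Onecut2* (r = 0.794), with eye 8 highest for both paralogs.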

How the data were processed

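Total RNA of each eye was labelled with Cy3 and hybridized to Agilent 8x60K whole mouse genome arrays. The authors deposited 1 scanner file per array, made with Agilent Feature Extraction 11.0.1.1 per the file headers, with the processed spot intensity used here and probe positions on mm9, and a table that repeats these intensities rounded (largest relative difference 0.00498), not normalized between arrays, which served as an alternative. The study normalized intensities with the qspline method. Here that method was written in R 4.3.3 after its description (100 quantile points, 5 iterations) and applied to all 31 arrays of 20 eyes. Control spots and spots flagged as non-uniform (120) or outlying (5639) were left out, repeated spots were averaged by probe, and paired arrays of 1 eye, which correlated at 0.978 to 0.994, were averaged in log2. Probes well above background in at least 3 eyes (35034) were fitted with limma 3.58.1 (eBayes with trend, 1 mean per group, all 20 eyes), with Benjamini-Hochberg adjustment and a threshold of 0.05. The number of arrays limits the precision.

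The brightest probe of a gene stands for it, and every other probe of a member is named. Up to 3 called genes with the largest change were named from each list of related genes in the main comparison, and up to 2 in each other comparison. 1 gene that this rule names is counted in its list but is not reported here. Members and lists were chosen with earlier results of these data known. Exact permutation tests compared probe pairs between eyes, and relations used 100000 permutations (scipy 1.17.1). The fit was tested on simulated data (34998 probes, of which 200 were given a log2 change of 1) and recovered 62% in the female and 48.5% in the male comparison. Alternatives covered background correction, normalization, filters, tests, probes, arrays, slides and single eyes left out. Ftx KO female eyes were not left out singly. WT female 3, which the study's numbering implies, and second arrays of the groups other than Ftx KO females were not analysed here. Positions were not set against gene models, since no mm9 annotation was used here.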

Additional observations from a re-analysis of the deposited data

How the results depend on the processing

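Counts of called probes (9361 for Ftx KO against WT females, 1 for Ftx KO against WT males, 135 for WT females against males, 428 for Ftx KO females against males, 0 for the female minus male change) and of called members (3, 0, 0, 2 and 0) depended on the setting, and the cause was not tested where none is given. Normalization to the 75th percentile kept every count within 1.5 times, but moved the median log2 difference of all probes in females from -0.01 to -0.15 and the split there from 4853 higher of 9361 called to 3657 of 9818, and *Ptf1a* was no longer called in females (log2 difference -0.41, adjusted p = 0.0525). Quantile normalization gave 10 probes for males. Normexp background with quantile normalization gave 11 for males, 319 for the WT sexes (191 higher, against 32 of 135) and 0 members for the Ftx KO sexes. The authors' table, which is not normalized between arrays, gave 3654 (2948 higher), 4, 87 and 134 probes in the first 4 comparisons, with median log2 differences of all probes of 0.10, -0.18, -0.10 and 0.22, and 0 members both for females and for the Ftx KO sexes. A WT female mean above 500 gave 4935, 3, 9 and 276 probes, since fewer probes were tested. No filter gave 58, 236 and 5 probes for males, the WT sexes and the female minus male change, and 0 members for the Ftx KO sexes. Fitting only the groups compared gave 0 and 79 probes for males and the WT sexes and 0 members for the Ftx KO sexes. Slide as a block gave 52 probes and 0 members for females, 87 probes for males, and 105 probes and 0 members for the Ftx KO sexes. Array 1 of each eye gave 3 probes for males and 1 member for the Ftx KO sexes, and array 2 gave 1 member for females, 2 probes for males and 0 members for the Ftx KO sexes. The methods' t-test after Benjamini-Hochberg gave 4947 probes and 1 member for females, 0 probes for males and for the WT sexes (where limma gave 1 and 135 and, unadjusted, 4765 and 4387), and 2194 probes and 1 member for the Ftx KO sexes. At the study's own criteria, an unadjusted p under 0.05 and a fold above 1.2 or below 0.8, the methods' t-test gave 1 member for females, 2083 probes and 1 member for males, 940 and 1 for the WT sexes, and 5091 and 4 for the Ftx KO sexes, and limma gave 3913 and 1, 3566 and 1, and 3861 and 4 in the last 3, with 3433 probes and 1 member for the female minus male change. Moderation without trend gave 25 probes for males, 3 for the female minus male change and 0 members for the Ftx KO sexes. The other probe of each gene gave 1 member for females and 1 for the Ftx KO sexes, and reversed *Neurod1* to 0.30 and *Lhx1* to 0.17 in females. Slide 2 alone gave 71 probes and 0 members for the Ftx KO sexes, and, chosen after seeing the data, slide 1 alone gave 20 probes for males and Ftx KO females of slide 4 alone gave 0 members against WT females. Leaving out 1 eye, never an Ftx KO female eye, gave 4117 to 10001 probes and 0 to 3 members for females (lowest without WT female 1), 0 to 818 probes and 0 to 1 members for males (highest without WT male 3), 105 to 1029 probes for the WT sexes (highest without WT female 4), 145 to 178 probes and 0 to 0 members for the Ftx KO sexes, and 0 to 15 probes for the female minus male change (highest without WT male 3). The relation of *Crx* and *Thrb* (r = 0.752) and that of *Onecut1* and *Onecut2* (r = 0.725) no longer passed with slide means out, except after normalization to the 75th percentile, and *Foxn4* and *Ptf1a* passed after normalization to the 75th percentile (r = 0.815). Same-numbered eyes of the groups deviated together by -0.339 to 0.159 in females and -0.069 to 0.033 in males (correlation over probes), so the numbers do not pair eyes. With the number as a replicate block, 4030, 0, 82 and 144 probes were called in the first 4 comparisons and 1 for the female minus male change, with 0 members for the Ftx KO sexes. *Lhx1* is limited by its signal, since its probes were well above background on 20 and 16 of 31 arrays.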

Other observations

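Bipolar cells are born after this stage, and 9 of 10 genes listed for them were measurable. Against WT females 4 fell and 2 rose in Ftx KO females, where 12.9% of all probes were called lower and 13.9% higher, with a median log2 difference of -0.41. Leaving out 1 WT female gave 1 to 4 falls and 0 to 1 rises. *Pcp2*, a modulator of G protein signalling in bipolar cells, averaged 185 ± 7.15 (SD, n = 3) in WT females and 92.2 ± 16.5 (n = 11) in Ftx KO females (log2 difference -1.03, limma, adjusted p = 0.00175), and it passed when any 1 WT female was left out (adjusted p up to 0.0148). Its means in WT and Ftx KO males were 142 ± 29.6 and 87.8 ± 35.4 (n = 3 each). *Irx6* averaged 1593 ± 225 in WT females (n = 3), 1658 ± 106 in Ftx KO males (n = 3) and 1203 ± 153 in Ftx KO females (n = 11), and was called against both (adjusted p = 0.0101 and 0.0351), but not without WT female 1 (0.087), without WT female 2 (0.0768) or without any 1 Ftx KO male (0.097 to 0.262). *Bhlhe23* was also called (adjusted p = 0.0176), but its probe was well above background on 8 of 22 Ftx KO female arrays, and WT female 2 had 88.5 where WT females 1 and 4 had 31.6 and 30.3. Without WT female 2 the log2 difference went from -1.16 to -0.65 and the call was lost (adjusted p = 0.218). *Trpm1*, also a gene of pigment cells, rose from 1644 ± 283 (n = 3) to 3762 ± 1685 (n = 11), which was lost when any 1 WT female was left out (adjusted p 0.056 to 0.169). With slide as a block none of these genes passed (adjusted p 0.482 to 0.557), and the log2 differences were -0.53 for *Pcp2*, -0.37 for *Irx6* and 1.31 for *Trpm1*, beside -1.03, -0.41 and 1.05 without it.

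The genes whose log2 signal was most like a member's over the 20 eyes, after group means were taken out, were sought among 21052 genes as a description. They were *Bcor* for *Otx2* (r = 0.915), *LOC100862400* for *Crx* (0.915), *Nsg2* for *Ptf1a* (0.909), *Hectd2* for *Foxn4* (0.901), *AK039724* for *Onecut1* (0.915) and *Gm12618* for *Lhx1* (0.855). No such genes were sought for *Thrb*, *Prdm1*, *Neurod1* and *Onecut2*. Eyes of a slide share its hybridization in these values.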
